A study of Mus musculus with 6 samples.

Results

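Bidirectional protein-coding promoters are short stretches of DNA from which a pair of genes on opposite strands is transcribed outward. They were taken here as pairs of protein-coding genes in the GENCODE annotation (release M21, mm10) that lay head to head, with the most upstream transcription start sites (TSSs) of their coding transcripts at most 1 kb apart. The rule gave 777 pairs. Where pairs shared a gene the closest was kept, which left 761 distinct loci on 20 chromosomes. The pairs held 1538 of the 21853 annotated protein-coding genes, 7.04% of them. For comparison, 17550 genes had no TSS of another protein-coding gene within 5 kb, and these are called single promoters. Start sites in a pair were a median of 136 bp apart, with an interquartile range from 72 to 263 bp.

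Chromatin accessibility was profiled by ATAC-seq, in which a transposase cuts and tags open DNA, in skeletal stem and progenitor cells (SSPCs) of C57BL/6 mice. The cells were plated from tibial and femoral marrow, carried no treatment and were studied at the first passage, in 3 young and 3 middle-aged libraries. The labels do not give ages in months or tie libraries to individual mice, so p-values measure the spread between these libraries, and the 6 values of any comparison may share animals. All cells of a flask went into a library, so a cell type that was less common and a site that was less open in each cell cannot be told apart.

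In a bidirectional promoter both genes face away from a shared region, which usually carries a CpG island and seldom a TATA box. Many such pairs encode housekeeping proteins, and genes for DNA repair, chromatin and mitochondria are common among them. Polymerases start in both directions from closely spaced assembly sites, and nucleosomes are generally depleted from the DNA between them.

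The 6 lists differed in length, from 27628 peaks in young 3 to 48344 in middle-aged 3. The lowest local background of a list, the mean number of extended reads per base, was 3.75, 2.83 and 1.65 in the young libraries 1 to 3 and ran from 2.40 to 2.79 in the middle-aged libraries. Young 3 was thus the shallowest. Of 12 stromal marker genes, 8, 7 and 2 had a peak within 1000 bp of a coding TSS in the young libraries 1 to 3, against 6, 8 and 8 in the middle-aged libraries 1 to 3. Lepr, Prrx1, Thy1 and Ly6a had none in any library. Of 9 hematopoietic markers 5 or 6 had a peak in each library, among them Ptprc, Spi1, Adgre1, Itgam and Cd68 in all 6, so promoters of hematopoietic genes were open in the labelled SSPC cultures too. Of 5 endothelial markers between 2 and 4 had one. The part of these differences in the results below was not tested beyond the values without young 3.

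The DNA between the start sites of 7 pairs is shown because the accessibility results turn on these loci or their type. They are examples of a CpG-dense promoter, a GC-box promoter with a weak peak and CCAAT-box promoters with peaks near the top of every list. The others are the pair with the widest peak, a histone pair and a pair without a called peak in any library. Each runs 5′ to 3′ on the plus strand from the base after the minus-strand TSS to the base before the plus-strand TSS, read from the mm10 reference (GRCm38.p6, RefSeq). No UTR is annotated within any of them, while 2 annotated exons overlap the Ranbp1/Trmt2a stretch and 1 the Col4a4/Col4a3 stretch. Capitals mark exact matches on either strand to the letters searched: CCAAT, the GC box GGGCGG, the ETS motif CCGGAAG, the NRF1 motif GCATGCGC and the TATA box TATAAA.
Ranbp1/Trmt2a (chr16:18248733-18248882): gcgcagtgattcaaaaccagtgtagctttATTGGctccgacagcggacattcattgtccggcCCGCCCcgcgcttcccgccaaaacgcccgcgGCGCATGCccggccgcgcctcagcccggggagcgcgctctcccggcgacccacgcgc
Polr2l/Tspan4 (chr7:141475133-141475239): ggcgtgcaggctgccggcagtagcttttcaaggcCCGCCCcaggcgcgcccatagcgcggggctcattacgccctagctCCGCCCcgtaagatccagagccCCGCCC
Rpa3/Umad1 (chr6:8259174-8259287): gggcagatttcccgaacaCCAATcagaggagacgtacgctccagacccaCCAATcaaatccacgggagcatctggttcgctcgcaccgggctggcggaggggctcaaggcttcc
Mrpl32/Psma2 (chr13:14613166-14613239): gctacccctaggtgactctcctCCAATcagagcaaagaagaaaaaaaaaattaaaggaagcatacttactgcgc
Ankib1/Krit1 (chr5:3802926-3803183): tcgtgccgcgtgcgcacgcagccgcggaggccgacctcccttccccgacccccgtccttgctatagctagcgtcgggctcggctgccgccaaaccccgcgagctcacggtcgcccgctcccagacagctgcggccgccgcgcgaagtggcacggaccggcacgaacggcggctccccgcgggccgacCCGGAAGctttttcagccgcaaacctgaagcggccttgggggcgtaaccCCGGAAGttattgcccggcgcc
Hist1h2ac/Hist1h2bc (chr13:23683949-23684198): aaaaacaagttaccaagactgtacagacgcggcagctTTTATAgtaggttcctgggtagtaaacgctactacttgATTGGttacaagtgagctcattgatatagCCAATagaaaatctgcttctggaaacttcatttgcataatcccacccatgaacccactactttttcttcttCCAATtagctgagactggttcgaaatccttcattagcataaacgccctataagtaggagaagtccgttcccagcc
Col4a4/Col4a3 (chr1:82586850-82586975): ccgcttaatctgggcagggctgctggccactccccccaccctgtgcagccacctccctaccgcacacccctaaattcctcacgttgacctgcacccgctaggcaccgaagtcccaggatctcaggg

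The stretches differed in composition. Ankib1/Krit1 held 39 CpGs in 258 bp at 72.5% GC and Ranbp1/Trmt2a 22 in 150 bp, while Mrpl32/Psma2 held 1 in 74 bp at 41.9% GC and Hist1h2ac/Hist1h2bc 6 in 250 bp at 41.6% GC. Col4a4/Col4a3 had 5 CpGs in 126 bp and none of the searched letters. These are descriptions of the reference letters and say nothing of which factor was bound.

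Most bidirectional promoters were accessible in SSPCs. The window from 500 bp outside one TSS to 500 bp outside the other held a called peak at 92.0%, 92.5% and 89.9% of the 761 loci in the young libraries 1 to 3 and at 93.0%, 93.6% and 93.8% in the middle-aged libraries 1 to 3. Over all protein-coding promoters the shares were 49.4%, 51.5%, 44.8%, 52.1%, 52.0% and 52.7% in the same order. The lowest share of pairs, in young 3, lay far above the highest share of all promoters. Single promoters, with windows of 500 bp on each side of the TSS, had a peak in 45.9% ± 3.12 (SD, n = 6 libraries), and the difference was 46.6 percentage points ± 1.76 (SD of 6 library differences; exact two-sided sign-flip permutation test, p = 0.03125, the smallest that 6 libraries allow; Benjamini-Hochberg adjusted p = 0.03125 over 4 measures).

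Where a window held peaks, the best one, that with the highest −log10 q, was also wider and stronger at the pairs. Its median width was 580.5, 623.5 and 493 bp in the young libraries 1 to 3 and 616, 631.5 and 639 bp in the middle-aged libraries 1 to 3, against 444 to 555 bp at single promoters. The widths of the classes overlapped between libraries, but within each of the 6 libraries the pairs had the wider peaks. The difference was 74.7 bp ± 14.2 (SD, n = 6; exact sign-flip permutation p = 0.03125, adjusted 0.03125).

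A peak's rank is given as its percentile by −log10 q in its own list, so that 100 is the top of the list. A rank depends on the length of the list, so ranks from lists of 27628 to 48344 peaks are not directly comparable, and values for equally long lists are given with the comparison of the ages. The median rank of the best peak was 87.5, 89.6 and 84.0 at bidirectional promoters in the young libraries 1 to 3 and 90.8, 90.8 and 91.1 in the middle-aged libraries 1 to 3. At single promoters the medians ran from 76.3 to 84.96, lower in each library than at the pairs. The difference was 7.03 percentile points ± 0.503 (SD, n = 6; exact sign-flip permutation p = 0.03125, adjusted 0.03125). The median fold enrichment over local background was 12.1 ± 1.27 at pairs and 10.2 ± 0.895 at single promoters, a difference of 1.90 ± 0.429 (SD, n = 6; exact sign-flip permutation p = 0.03125, adjusted 0.03125).

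**Figure D1:**
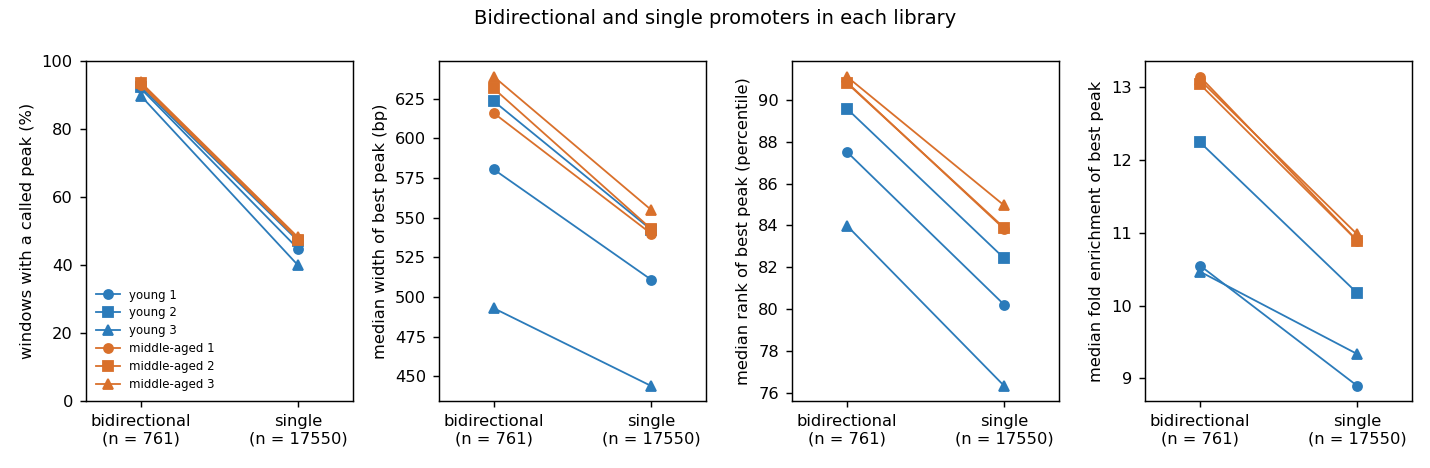
Each line joins the bidirectional (n = 761) and single (n = 17550) promoters of 1 library, young in blue and middle-aged in orange, for the share of windows with a peak (%), the median width (bp), the median rank (percentile) and the median fold enrichment of the best peak. Only the first axis starts at 0. Every line falls from bidirectional to single promoters, and young 3 is lowest for share, width and rank.

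The size of these differences moved with CpG content. A promoter, taken as the 250 bp before to 50 bp after its TSS, was called CpG-rich when its ratio of observed to expected CpG was at least 0.6. Both promoters were CpG-rich at 630 pairs (82.8%), 1 of them at 62 and neither at 69, while 41.1% of single promoters were CpG-rich. With CpG-rich promoters alone, the share of called windows differed by 15.3 percentage points (97.0% at pairs against 81.7%), the width by 54.1 bp and the rank by 4.30 percentile points. With the further limit to windows called in all 6 libraries, 591 pairs differed from 5233 single promoters by 34.3 bp, 2.59 percentile points and 0.77 in fold. In each of these the pairs were higher in 6 of 6 libraries, with the same exact p of 0.03125.

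Among the pairs themselves the called share went from 97.0% ± 1.33 with both promoters CpG-rich to 90.3% ± 1.44 with 1 and 53.1% ± 3.26 with neither (SD, n = 6 libraries). The median rank of the called windows went from 89.6 ± 2.50 to 87.5 ± 3.79 and 80.8 ± 4.97 in the same order. Single promoters that were not CpG-rich had a peak in 20.9% ± 2.40, from 16.5% to 22.8% by library, against 49.3% to 56.5% at the pairs with neither promoter CpG-rich. The median GC content of the bidirectional promoters was 62.3% and their median CpG ratio 0.849, against 54.3% and 0.474 at single promoters.

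Several short motifs were more frequent at bidirectional promoters. The windows of genes less than 250 bp apart overlap, so the 1522 promoters of the pairs are not independent, and the shares are given without a test. ETS letters (CCGGAAG, either strand), the core bound by GABPA and related factors, stood in 27.3% of bidirectional, 9.19% of single, 17.1% of CpG-rich single and 10.96% of all coding promoters. NRF1 letters (GCATGCGC), for a regulator of nuclear genes of mitochondria, stood in 7.16%, 3.44%, 6.15% and 3.73% in the same order. YY1 letters (AAGATGGCG) stood in 5.32%, 1.33%, 2.87% and 1.72%. At the CpG-rich promoters of pairs alone, the shares were 30.2% for ETS, 7.79% for NRF1 and 5.75% for YY1 letters. The shares at pairs thus lay above the CpG-rich single promoters too, with NRF1 the closest to theirs.

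The TATA box showed the reverse. TATAAA stood in 4.34% of bidirectional, 13.7% of single, 6.33% of CpG-rich single and 12.6% of all promoters. The GC box (GGGCGG), the Sp1 site, stood in 67.9%, 41.7%, 74.4% and 43.8%, so it was more frequent than at all single promoters and less frequent than at CpG-rich ones. At the CpG-rich promoters of pairs alone, the GC box stood in 71.7% and TATAAA in 3.40%. CCAAT, bound by NF-Y, stood in 43.6%, 38.7%, 37.0% and 39.0%. The cyclic AMP response element (TGACGTCA) was found in 4.796%, 2.33%, 4.02% and 2.46%, and E2F letters (TTTGGCGC or TTTCCCGC) in 4.53%, 1.81%, 3.27% and 2.05%. RBPJ letters (TGGGAA), the core bound by the nuclear effector of Notch, stood in 21.1%, 25.3%, 19.2% and 25.2%.

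Motif content also went with the rank of a pair, again as a description. Of the 676 pairs with a peak in all 6 libraries, the 354 with CCAAT in at least 1 promoter had a median mean rank of 91.7 and the 322 without it 84.7. The 534 with a GC box had 89.95 against 85.95 for the other 142. The order was reversed for TATAAA, with 82.2 in the 39 pairs that had it and 89.7 in the 637 that did not, and slight for ETS letters, with 88.0 in 235 pairs and 89.6 in 441.

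The best peak usually covered both TSSs. Of the pairs with a peak, 86.2% ± 1.96 (SD, n = 6 libraries) had both TSSs inside the best peak, and its summit fell between the TSSs in 64.5% ± 1.18, within the minus-strand gene in 18.5% ± 0.679 and within the plus-strand gene in 17.0% ± 0.668. The summit was a median of 43.8 bp ± 2.48 from the midpoint of the TSSs. It lay within 100 bp of the midpoint in 70.1% ± 0.581 of the pairs. Among pairs with TSSs at most 100 bp apart, the summit fell between the TSSs in 48.0% ± 2.68. At single promoters the summit lay upstream of the TSS in 65.5% ± 1.00, so a summit outside the gene was not particular to pairs.

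Seen from a gene, the best peak of a pair reached less far into the gene than that of a single promoter. From a TSS of a pair, the best peak reached a median of 183 bp ± 18.0 into the gene and 369 bp ± 27.3 the other way, while at a single promoter it reached 267 bp ± 40.4 into the gene and 231 bp ± 7.36 upstream. The reach into the gene was 83.7 bp ± 23.1 shorter at pairs (shorter in 6 of 6 libraries; exact sign-flip permutation p = 0.03125), and 73.6 bp ± 24.5 shorter among CpG-rich promoters. The reach away from the gene was 138 bp ± 20.1 longer (exact sign-flip permutation p = 0.03125). Where the best peak covers both TSSs, this reach includes the distance between them, a median of 136 bp over all pairs. Its test therefore cannot show a shift of the peak beyond the spacing of the TSSs. These widths use whole peaks, and at most pairs the same peak was counted from both of its genes. The reaches of such a peak into both genes add up to its width less the spacing of the TSSs. The test of the reach into the gene therefore cannot show a shift away from the gene body either.

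Accessibility changed with the distance between the TSSs. The 286 pairs with TSSs at most 100 bp apart had a median rank of 84.4 ± 4.43 and a median width of 560 bp ± 46.1. CpG-rich single promoters were close to this class, with 85.3 ± 3.08 and 558 bp ± 46.5, so the closest pairs were not set apart from them in rank and width. The called share was 95.0% ± 1.75 in this class and 81.7% ± 4.19 at CpG-rich single promoters. Over all single promoters the rank and width were lower, at 81.9 and 523 bp. These comparisons were not tested. At 101 to 200 bp (211 pairs) the medians were 90.5 ± 2.37 and 611 bp ± 66.7, and at 201 to 300 bp (105 pairs) 92.3 ± 1.64 and 632 bp ± 52.3. They were highest at 301 to 500 bp (83 pairs), with 95.0 ± 0.946 and 707 bp ± 45.6, and lower again at 501 to 1000 bp (76 pairs), with 85.9 ± 3.96 and 537 bp ± 58.5 (SD, n = 6 libraries).

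Neighbouring distance classes were compared within each library. Rank rose with each step up to 301 to 500 bp, by 6.08, 1.79 and 2.71 percentile points, and then fell by 9.13, each in 6 of 6 libraries (exact sign-flip permutation p = 0.03125, adjusted p = 0.0357 over 8 comparisons of neighbouring distances). Width rose by 50.8 and 74.7 bp at the first and the third step and fell by 170 bp at the last (exact p = 0.03125, adjusted 0.0357). The second step, 21.1 bp ± 24.97, did not pass (wider in 4 of 6 libraries, exact permutation p = 0.125). Over all pairs, distance and width were only loosely related, with a Spearman correlation between 0.126 and 0.209 across the 684 to 714 called pairs of a library, which share that library's depth. CpG content moved with distance as well: both promoters were CpG-rich in 92.3%, 85.8%, 83.8%, 78.3% and 42.1% of the pairs from the closest to the farthest, and its part in these steps was not tested. The window searched for the best peak also grew with the distance. Called windows with 2 or more peaks made up 8.88% in the closest class, 14.9% at 301 to 500 bp and 37.8% at 501 to 1000 bp. The part of window length in these steps was not tested either.

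The number of peaks over a pair followed its distance. Both TSSs lay in the same peak in 94.1% ± 2.31 of all pairs at most 100 bp apart, 86.3% ± 1.47 at 101 to 200 bp, 78.3% ± 5.16 at 201 to 300 bp, 74.1% ± 5.27 at 301 to 500 bp and 23.5% ± 5.09 at 501 to 1000 bp. In the last class 19.7% ± 3.33 of the pairs had each TSS in a peak of its own, 37.5% ± 3.70 had a peak over 1 TSS only and 14.0% ± 2.72 had no peak. In the last class a peak over 1 TSS only was thus the most frequent single arrangement. The arrangements with both TSSs covered, in the same peak or in separate peaks, were together more frequent than it. A close pair was almost always open as one region.

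**Figure D2:**
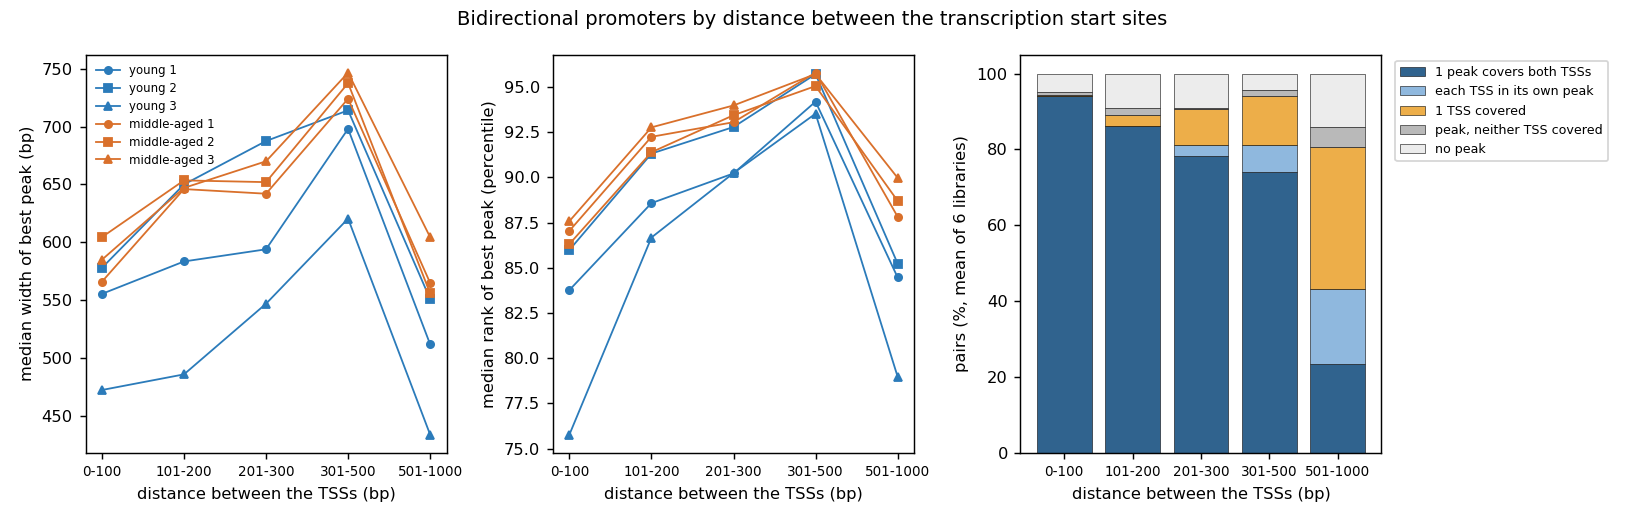
The left and middle panels give the median width (bp) and median rank (percentile) of the best peak for each library by the distance between the TSSs in bp, on axes that do not start at 0. The bars on the right give the share of pairs in each arrangement as the mean of 6 libraries. Width and rank peak at 301 to 500 bp, at means of 707 bp and 95.0, and the share with both TSSs in 1 peak drops from 74.1% to 23.5% in the last class.

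**Figure D3:**
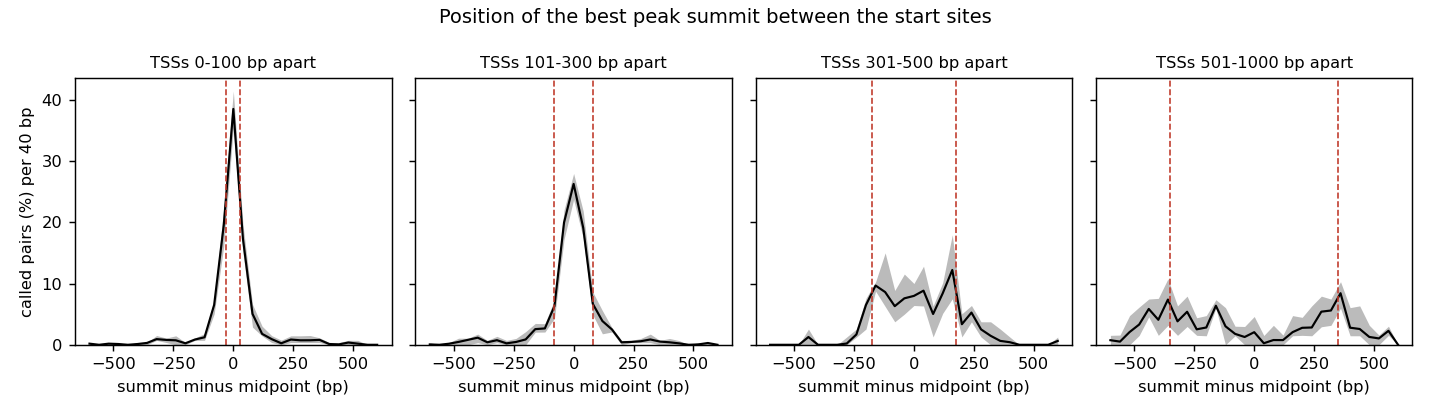
The share of called pairs (%) whose best summit fell in each 40 bp step around the midpoint of the TSSs is drawn as the mean (line) and range (grey) of 6 libraries, with dashed lines at the median TSS positions. Below 301 bp the summits form 1 peak at the midpoint, and at 501 to 1000 bp the mean profile is higher near the TSSs than at the midpoint.

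Some far-spaced TSSs were bridged by 1 peak in all 6 libraries, among them those of Pdcd10/Serpini1 (691 bp), Mms19/Ubtd1 (606 bp), Rnf5/Agpat1 and Dcaf6/Mpc2 (572 bp each). Pdcd10 is a cavernous malformation gene and Mms19 a factor for iron-sulfur proteins of DNA metabolism. The Pdcd10/Serpini1 peak was 948, 942 and 1147 bp wide in the young libraries 1 to 3 and 993, 955 and 945 bp in the middle-aged libraries 1 to 3. The groups overlapped, and its rank was 99.2 or more in every library. At the limit of the rule, the pairs just inside were Btf3l4/Txndc12 (987 bp, 6 libraries called), Asphd1/Sez6l2 (981 bp, 4) and Zfyve26/Rad51b (978 bp, 6), and those just outside were Ddias/Prcp (1005 bp, 6), 5330417C22Rik/1700013F07Rik (1005 bp, 4) and Serpina7/4930513O06Rik (1007 bp, none).

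Some pairs of DNA repair and replication genes ranked high in the lists. Rpa3/Umad1 was named for its high rank, and Atm/Npat both for its rank and as a well-known pair. Over the whole list of DNA repair and replication loci the mean ranks ran from 42.4 to 99.8. Their median was 91.3, against 89.0 over all pairs. Atm, the kinase that responds to double-strand breaks, shares its promoter with Npat, a coactivator of histone genes, at TSSs 307 bp apart on chromosome 9. Their peak ranked 99.7, 99.9 and 99.7 in the young libraries 1 to 3 and 99.9, 99.8 and 99.6 in the middle-aged libraries 1 to 3. The groups overlapped and no library fell below 99.6. Rpa3, the smallest subunit of the single-strand binding protein RPA, and Umad1 ranked 99.7, 99.9 and 99.9 in young and 99.8, 99.8 and 99.6 in middle-aged libraries, over the CCAAT boxes printed above.

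Mcm4, a subunit of the replicative helicase, and Prkdc, the catalytic subunit of DNA-dependent protein kinase, lay 489 bp apart and ranked from 96.4 to 98.6. Brca1, the homologous recombination protein, and Nbr1, an autophagy receptor, lay 270 bp apart and ranked from 90.4 to 93.7. Their shape differed between libraries: in young 2 and the 3 middle-aged libraries 1 peak of 1145 to 1172 bp covered both TSSs, while young 1 and young 3 had 2 peaks, the best of which was 499 and 448 bp wide.

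Known pairs with distant TSSs were not bridged by 1 peak. Gart, an enzyme of purine synthesis, and Son, a splicing cofactor, had TSSs 554 bp apart and 2 peaks in each of the 6 libraries, with a best rank from 82.9 to 93.2. Wrn, the Werner syndrome helicase, and Purg had TSSs 798 bp apart and a single peak that covered the Wrn end alone in all 6 libraries, ranked from 86.4 to 93.9. In both pairs young 3 was lowest.

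Pairs for RNA and protein synthesis were mostly open. Ranbp1, a regulator of nuclear transport, and Trmt2a, a tRNA methyltransferase, ranked 96.6, 96.6 and 95.9 in the young libraries 1 to 3 and 97.7, 94.5 and 97.8 in the middle-aged libraries 1 to 3, so the groups overlapped. Mrps12, a mitochondrial ribosomal protein, and Sars2, the mitochondrial seryl-tRNA synthetase, ranked 92.3, 93.8 and 82.6 in young and 94.1, 93.8 and 92.8 in middle-aged libraries, with young 3 lowest. Ndufaf2, an assembly factor of respiratory complex I, and Ercc8, a transcription-coupled repair protein, ranked from 95.9 to 98.3.

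2 of the 13 well-known pairs that met the rule had weak and partial calls. Polr2l, a subunit of all 3 nuclear RNA polymerases, and Tspan4, a tetraspanin, had peaks of rank 40.7 and 60.04 in young 1 and 2, none in young 3, and 40.8, 3.9 and 50.002 in the middle-aged libraries 1 to 3. Wrap53 and Trp53, the gene of p53, had peaks of rank 38.6 in young 1, 28.2 in young 3, 16.0 in middle-aged 2 and 63.0 in middle-aged 3, and none in young 2 and middle-aged 1. Both ages were thus represented among the calls and among the gaps. Col4a4 and Col4a3, collagen chains of the kidney filter, had no peak in any library.

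**Figure D4:**
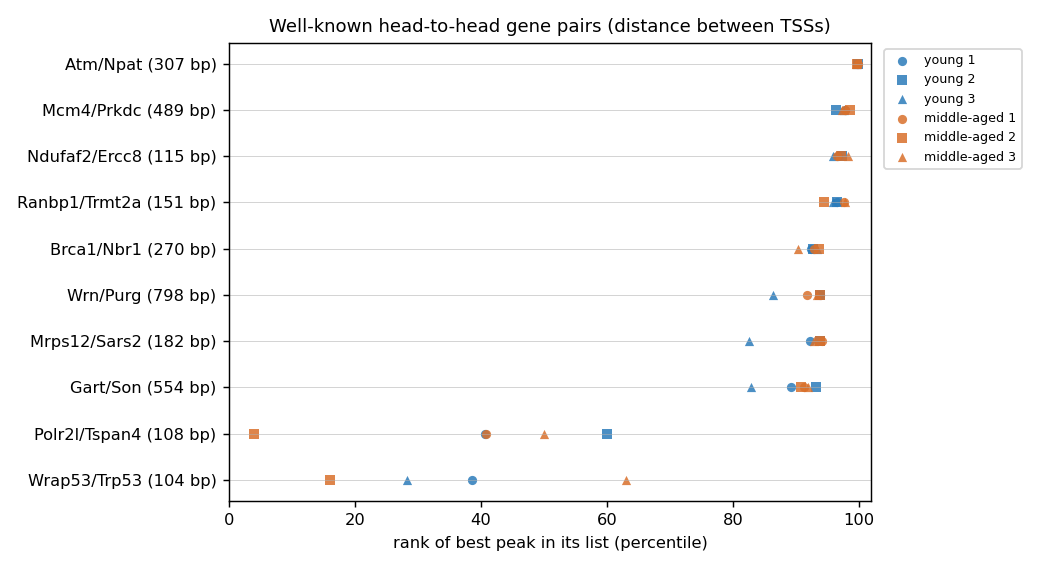
The rank of the best peak (percentile in its own list, axis from 0) is drawn for each library at 10 well-known pairs with at least 1 peak, young in blue and middle-aged in orange, with the TSS distance in the label. The 8 upper pairs lie at 82.6 or above in every library, and the lower 2 are scattered from 3.9 to 63.0 with gaps.

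The highest mean rank of all belonged to Aasdhppt/Kbtbd3, whose ranks ran from 99.87 to 99.99. Aasdhppt transfers the phosphopantetheine cofactor to fatty acid synthase and other carrier proteins. Next came Cdca2/Kctd9 (mean 99.91 ± 0.0495, SD, n = 6), with Cdca2 a chromatin anchor of protein phosphatase 1, Prkra/Pjvk (99.91 ± 0.102), with Prkra an activator of the kinase PKR, and Zfp654/Cggbp1, with Cggbp1 a CGG-repeat binding protein. Plag1/Chchd7, Anxa5/1810062G17Rik, Atp7b/Alg11 and Tmtc3/Cep290 completed the 10 highest, with mean ranks of 99.76 or more, along with the Rpa3 and Atm pairs. Atp7b exports copper and Cep290 belongs to the transition zone of cilia. In all, 232 of the 761 pairs (30.5%) ranked above 90 in all 6 libraries, against 1649 of the 17550 single promoters (9.40%). These shares count windows without a peak, so they mix rank with the share of windows called. A peak in all 6 libraries was present at 676 pairs and at 6817 single promoters, and CpG content was not matched.

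Width and rank did not pick the same pairs. The widest best peak was that of Ankib1/Krit1, with a ubiquitin ligase and the cavernous malformation gene Krit1, at 1125, 1208 and 1090 bp in the young libraries 1 to 3 and 1430, 1091 and 1391 bp in the middle-aged libraries 1 to 3. Its rank was only 62.6, 78.1 and 50.3 in the young and 78.1, 75.5 and 75.1 in the middle-aged libraries. Utp18/Mbtd1 (mean 1188 bp), Ttc9c/Hnrnpul2 (1168 bp) and Srsf7/Ttc39d (1154 bp) were also wide, with mean ranks of 96.1, 93.1 and 87.4. Utp18 acts in ribosome biogenesis and Srsf7 in splicing.

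Gene families were represented unequally. Of 120 DNA repair and replication genes, 34 (28.3%) were in a pair, against 7.04% of all protein-coding genes. The shares were 28.3% for complex I genes (13 of 46), 25.6% for mitochondrial ribosomal proteins (20 of 78), 16.2% for proteasome subunits (6 of 37), 13.5% for aminoacyl-tRNA synthetases (5 of 37) and 10.98% for cytosolic ribosomal proteins (9 of 82). Clustered histone genes had the largest share of the lists, 40.3% (27 of 67). Zinc finger genes of the prefix list had 4.79% (19 of 397), collagens 2 of 44, and olfactory receptors 0 of 1133. None of 32 stromal and osteogenic genes and none of 20 hematopoietic genes was in a pair. No enrichment was tested, and the lists describe the annotation, not the libraries.

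Within these families most pairs were open. All 6 libraries had a peak at 32 of 33 DNA repair loci, 17 of 19 mitochondrial ribosomal loci, 12 of 13 complex I loci, 6 of 6 proteasome loci and 5 of 5 aminoacyl-tRNA synthetase loci, against 676 of 761 pairs in all. Their median mean ranks were 91.3, 91.2, 90.4, 87.5 and 90.1, against 89.0 over all pairs. Cytosolic ribosomal protein loci were lower, at 66.9 with 7 of 9 in all libraries. Mrpl32, of the mitochondrial large subunit, and Psma2, of the proteasome core, ranked 99.2, 99.4 and 99.2 in the young libraries 1 to 3 and 99.6, 99.1 and 99.7 in the middle-aged libraries 1 to 3, with TSSs 75 bp apart over the AT-rich sequence printed above.

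The following pairs were the highest-ranked of their lists, not a sample of them. Mrpl50/Zfp189 ranked from 99.0 to 99.5, and Ndufa4/Phf14 95.1 in young 3 and from 98.9 to 99.4 elsewhere. Psmd10/Atg4a ranked from 89.1 to 94.3 and Rpl36al/Mgat2 from 95.3 to 98.3. At Med22/Rpl7a, with a Mediator subunit and a ribosomal protein, the ranks were 76.1, 82.7 and 78.2 in the young and 87.5, 85.3 and 92.0 in the middle-aged libraries, without overlap. Ndufa5/Asb15 ranked from 97.3 to 98.9, but in no library did its peak, 463 to 558 bp wide, cover both TSSs.

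The 14 histone loci were placed at a median of 259.5 bp, from 156 to 660 bp, and most paired an H2A with an H2B gene. Of these, 11 had a peak in all 6 libraries and 3 in none, and the median mean rank was 84.3 with a median mean width of 433 bp. Hist1h2ah/Hist1h2bk ranked 91.4, 92.6 and 91.5 in the young libraries 1 to 3 and 94.5, 89.0 and 91.7 in the middle-aged libraries 1 to 3. Hist1h2ac/Hist1h2bc, the TATA-containing pair printed above, ranked 88.4, 87.3 and 90.2 in the young and 90.7, 91.7 and 94.2 in the middle-aged libraries, all of the latter higher. Many clustered histone genes have near-identical copies to which short reads may not map uniquely. The 3 uncalled loci (Hist1h2bq/Hist1h2ao, Hist1h2ap/Hist1h2br and Hist1h2ba/Hist1h2aa) are uncertain, since unique mapping was not tested at any of them. They were not alike: Hist1h2ba/Hist1h2aa had ratios of observed to expected CpG of 0.455 and 0.578, the others 0.896 to 0.944.

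Most pairs were called everywhere or nowhere. A peak was found in all 6 libraries at 676 pairs (88.8%), in none at 42 (5.52%) and in 1 to 5 at 43 (5.65%). Over all protein-coding promoters the share called in all 6 was 43.6% and the share called in none 43.9%. Of the 43 partly called pairs 35 lacked a peak in young 3, the shallowest library, 19 in young 1, 15 in young 2, and 11, 7 and 5 in the middle-aged libraries 1 to 3. Young 3 was the only library without a peak at 15 of them.

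The 42 pairs without a peak were mostly poor in CpG. Neither promoter was CpG-rich at 28 of them and both were at 10. They included genes known for restricted expression: Nphs1, which encodes nephrin of the kidney filter, with Kirrel2, Cd8b1 of T cells with Smyd1 of muscle, Duox2 with its maturation factor Duoxa2, Plcz1 of sperm with Capza3, and the cohesin subunit Smc1b of meiosis with Ribc2. The imprinted pair Peg3/Usp29 was also among them. These examples were chosen after the list was seen. At 8 of the 42, among them Dgcr2/Tssk1 and Rnf151/Rps2, another coding TSS of either gene had a peak in all 6 libraries, so there the gene had a peak away from its most upstream TSS.

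Window edges mattered at few loci. Of the 47 to 77 windows without a peak in a library, 1 to 3 had a peak that began within 100 bp outside. At Pinlyp/Xrcc1, with the scaffold of single-strand break repair Xrcc1, middle-aged 2 and 3 had a peak of rank 96.7 and 96.9 inside the window and the other 4 libraries a peak of rank 95.8 to 97.5 that lay 5 to 24 bp outside, so its partial call was one of position. This pair was chosen after its values were seen.

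The second question was whether these promoters differ between young and middle-aged SSPCs. On summary measures the middle-aged libraries lay higher, but no difference passed a test. The share of called pairs was 91.5% ± 1.39 in young and 93.5% ± 0.401 in middle-aged libraries (SD, n = 3 each), a difference of 2.01 percentage points (exact permutation test over 20 arrangements, two-sided p = 0.1, the smallest possible with 3 against 3; adjusted 0.133 over 4 measures). The median rank was 87.0 ± 2.82 and 90.9 ± 0.167, 3.88 percentile points apart (exact permutation p = 0.1, adjusted 0.133), and the median fold 11.1 ± 1.00 and 13.1 ± 0.0530, 2.01 apart (exact permutation p = 0.1, adjusted 0.133). The median width was 566 bp ± 66.5 and 629 bp ± 11.7, 63.2 bp apart (exact permutation p = 0.2, adjusted 0.2), with young 2 wider than middle-aged 1. Without young 3 the differences were 1.23 percentage points, 2.37 percentile points, 1.70 in fold and 26.8 bp. With every list limited to its 27628 best peaks the share differed by 0.832 percentage points and the rank by 0.67 percentile points.

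The difference between the ages was not shown to be particular to pairs. The gap between pairs and single promoters differed between the ages by −1.79 percentage points in share (exact permutation p = 0.4), 16.3 bp in width (p = 0.2, exact), −0.677 percentile points in rank (p = 0.1, exact) and 0.556 in fold (p = 0.1, exact). None of them passed after adjustment over 4 measures (0.4, 0.267, 0.2 and 0.2).

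Single pairs gave a similar picture. Of the 676 pairs with 6 peaks, 211 had every middle-aged rank above every young rank, which is 31.2% against 30.4% of all promoters with 6 peaks. In 3 pairs, 0.444% against 0.283%, every young rank was the higher. When each list was limited to the 27628 best peaks, the length of the shortest, these counts became 65 and 23. Without young 2 the first was 390, and without young 3 the second was 19. The second was also above 1.5 times its main value without young 1 (7), middle-aged 1 (8) and middle-aged 2 (5). Leaving out a library loosens the criterion, so the counts without a library could rise but not fall. Shares over all promoters were computed for the main setting only.

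The largest differences without overlap were at pairs of low rank in the young. Poll, DNA polymerase lambda, with the predicted gene Gm17018 had ranks of 26.1, 31.7 and 5.3 in the young libraries 1 to 3 and 59.5, 74.9 and 70.4 in the middle-aged libraries 1 to 3, a mean difference of 47.2 percentile points. Its peak was 227, 227 and 207 bp wide in the young and 544, 435 and 510 bp in the middle-aged libraries, so both measures were without overlap. Entr1/Pmpca, with a subunit of the mitochondrial processing peptidase, ranked 41.3, 52.3 and 21.8 in the young and 77.2, 70.2 and 59.9 in the middle-aged libraries.

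Rfng, the radical fringe glycosyltransferase that modifies Notch receptors, lies 68 bp from Gps1, a subunit of the COP9 signalosome. Its pair ranked 29.3, 49.4 and 19.5 in the young libraries 1 to 3 and 61.3, 64.3 and 63.8 in the middle-aged libraries 1 to 3, a mean difference of 30.4 percentile points. Gtf3c4/Ddx31, with a subunit of the polymerase III factor TFIIIC, ranked 53.0, 59.5 and 13.3 against 68.8, 67.1 and 79.8, and Armh1/Tmem53 60.3, 64.03 and 12.01 against 79.4, 69.8 and 76.2. In each of these 5 pairs young 3 was the lowest library and the groups did not overlap. Being named for their differences, they carry no test.

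The 3 pairs in the other direction differed little. Vipas39/Ahsa1, with the Hsp90 activator Ahsa1, ranked 89.7, 89.1 and 87.9 in the young and 84.4, 87.9 and 84.9 in the middle-aged libraries. Cep128/Tshr, with the thyrotropin receptor, ranked 99.8, 99.8 and 99.6 against 99.2, 99.2 and 99.3, and Rpgrip1l/Fto, with the RNA demethylase Fto, 99.7, 99.6 and 99.4 against 99.3, 99.3 and 99.2. The mean differences were −3.18, −0.54 and −0.26 percentile points.

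**Figure D5:**
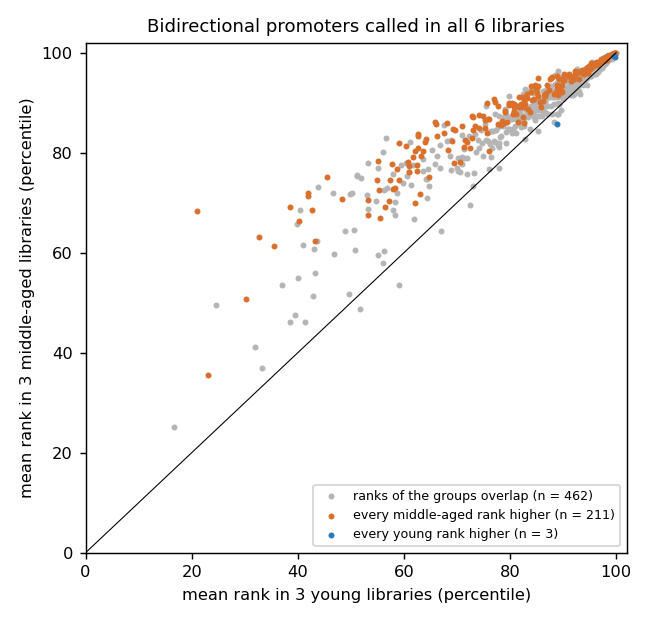
Each point is 1 of the 676 bidirectional promoters with a peak in all 6 libraries, placed by its mean rank (percentile) in the 3 young (x) and 3 middle-aged (y) libraries, with a line of equality. Orange marks the 211 pairs with every middle-aged rank higher and blue the 3 with every young rank higher. The orange points lie above the line and the largest distance from it is at a young mean of 21.02, the Poll pair.

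Gain or loss of a whole peak with age was rare. A peak in all 3 middle-aged and no young library was found at 2 pairs, against 0.426% of all promoters. A peak in all young and no middle-aged library was found at 0, against 0.00458%. Supt7l, a subunit of the SAGA coactivator, with Slc4a1ap had ranks of 46.3, 29.7 and 31.4 in the middle-aged libraries 1 to 3, and Obsl1/Inha, with the inhibin alpha subunit, 30.2, 9.2 and 8.0. Both stood below the middle of their lists. The count was 6 without young 2 and 4 without middle-aged 1 or middle-aged 2. Without a library the criterion is looser and the count cannot fall, and no share over all promoters was computed there.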

How the data were processed

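ATAC-seq peak lists of 3 young and 3 middle-aged SSPC libraries were used. To make them, the authors ran bcl2fastq on the base calls, Bowtie2 for alignment to mm10, Sambamba to drop duplicates, and MACS on each library separately. Caller settings and any transposase shift are not given in the sources used here. The score the authors deposited is a whole-number form of −log10 q. Fold enrichment, as the authors deposited it, divides the summit pileup by the local background on a linear scale, with no control library. The −log10 p and −log10 q deposited by the authors rank peaks within a list. Their differential test needs reads and was not repeated. Read numbers were not used here, and the background per base was solved from fold and −log10 p (a whole pileup for 100% of peaks in each list). The depth limits the precision of every list.

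Members and gene lists were chosen with earlier results of these data known. Coordinates count from 1. TSSs came from GENCODE M21, genes by their most upstream coding transcript, and overlap of at least 1 bp counted. Pairs with overlapping 5′ ends (376 loci) were an alternative only. Libraries, not loci, were replicates: classes were compared by exact sign-flip permutation of library differences (64 patterns) and ages by exact permutation (20 arrangements), with Benjamini-Hochberg adjustment over 4 measures. Named pairs were the well-known head-to-head pairs, the 10 highest mean ranks, the 5 widest, the 5 largest age differences without overlap in each direction, all pairs called at 1 age only, the 5 widest spans and the 2 highest of each gene list. 0 columns of other samples were present. Steps were tested on simulated peaks (Python 3.11.15, numpy 2.4.6, pandas 2.3.3, scipy 1.17.1). Some loci that the naming rule picks are not reported here.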

Additional observations from a re-analysis of the deposited data

How the results depend on the processing

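The comparison of bidirectional with single promoters kept its direction under every alternative run and its side of the threshold under all that used 6 libraries: peaks with −log10 q of at least 5, equally long lists, an overlap of at least 100 bp, gene record starts as TSSs, pairs at most 500 bp apart, longer single windows, single promoters without any annotated TSS nearby, CpG-rich promoters, no histone genes, overlapping 5′ ends added, means for medians, and the best peak by fold. Limiting the comparison to windows called in all 6 libraries, with or without the CpG limit, was chosen after seeing the data. Over these the differences ran from 15.3 to 49.7 percentage points in share, 34.3 to 81.7 bp in width, 2.59 to 10.7 percentile points in rank and 0.77 to 2.13 in fold. Leaving out 1 library in turn gave 45.9 to 46.8 percentage points, 71.9 to 79.8 bp, 6.91 to 7.21 percentile points and 1.83 to 2.05 in fold, no longer past the threshold because 5 libraries allow no exact p below 0.0625.

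The difference of the class gap between ages changed sign in share with equally long lists (0.0136), in width over windows called in all 6 libraries (−1.17) and in rank with means over windows (1.18), and the cause was not tested. Without single libraries the age differences at pairs ran from 1.23 to 2.54 percentage points, 26.8 to 92.1 bp, 2.37 to 5.16 percentile points and 1.70 to 2.59 in fold, the lowest each without young 3. The count with a peak in all middle-aged and no young libraries was 1 with the stricter q, with gene record starts and with pairs at most 500 bp apart, 0 with equally long lists and with CpG-rich promoters, and 2 to 6 without single libraries. The count with every middle-aged rank higher was 65 with equally long lists and 243 to 390 without single libraries. The count with every young rank higher was 23 with equally long lists, 1 with CpG-rich promoters, 6 with overlapping 5′ ends added and 3 to 19 without single libraries. These counts can only rise or stay when a library is left out. No share over all promoters was computed under the alternatives.

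Replicate numbers are shared by the ages but did not pair the libraries: the correlations of equal-numbered deviations were −0.0596, −0.198 and −0.229 over 676 pairs. With a replicate block the age differences at pairs were unchanged in size (2.01 percentage points, 63.2 bp, 3.88 percentile points and 2.01 in fold), each at an exact sign-flip permutation p of 0.25, the smallest 3 pairs allow, so no call changed.

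Equally long lists reduced the age difference at pairs to 0.832 percentage points in share and 0.67 percentile points in rank. Read numbers were not used here, the lists held 27628 peaks in young 3 and up to 48344 in middle-aged 3, and 3 libraries an age allow no exact p below 0.1.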
